A study of Mus musculus with 12 samples.

Results

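The genes of amino acid breakdown and the urea cycle were examined in livers of mice that carry the K289R form of LRH-1. The set was a named list of 41 genes, taken through the gene symbols of the array's annotation. Its rule used no measured value, but the genes were chosen with earlier results of these data known. Of the 41 genes, 38 could be analysed as genes, out of 19938 genes on the array. Ass1 was represented only by probe sets that it shares with Gm5424, and Sds and Sdsl were not analysed here. Mut is listed under its current symbol, Mmut. Liver RNA came from 6 wild-type (WT) males and 6 males labelled LRH-1 K289R, all on the C57BL/6J background, with 1 array for each mouse. All 12 mice had been fasted for 24 h and refed for 6 h, so there was no fasted or unfasted group. LRH-1 is a nuclear receptor encoded by Nr5a2, and the knock-in replaces a lysine to which SUMO is attached with an arginine. The labels do not say whether the allele was homozygous, and they give no age. The genotype label of WT 4 was garbled, and that mouse was taken as WT from its title and source name. A knock-in acts in every cell that expresses the receptor, so a difference in liver need not arise in hepatocytes. In whole liver, fewer cells of a type and less RNA per cell cannot be told apart.

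The liver is the main site at which the carbon of amino acids is burned or turned into glucose and their nitrogen into urea. Ammonia and aspartate enter the urea cycle through mitochondrial and cytosolic steps, and arginase releases urea at the end. Tyrosine, histidine, tryptophan and lysine each have a chain of liver enzymes, whereas branched-chain amino acids first lose nitrogen largely in other tissues and are then oxidized in mitochondria. Many of these enzymes are induced by glucagon and glucocorticoids during fasting or a high-protein diet, and much of the urea cycle is concentrated in periportal hepatocytes.

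None of the 38 genes passed the test between genotypes, against 0.572% of all genes tested (114 of 19938), of which 0.481% were higher and 0.0903% lower in K289R. A gene was called changed at an adjusted p under 0.05 in limma, adjusted over all 19938 genes. The smallest adjusted p among the 38 was 0.0947, for Bckdhb and Gldc. Log2 differences, K289R minus WT, ran from -0.13 (Hal) to 0.34 (Bckdhb), which is 1.26-fold. Their standard errors ran from 0.06 to 0.15, with a median of 0.08. The 95% interval lay within 1.5-fold in either direction for 37 of the 38 genes. That share is near the 97.1% of all genes, so it says nothing particular about this list. The exception was Afmid, whose interval reached 1.51-fold. The 12 genes with the smallest p are given with their range over the arrays of each genotype, and the other 26 had adjusted p from 0.524 to 0.992.

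Values leaned toward K289R without passing. The log2 difference was positive in 30 of the 38 genes and negative in 8, against a positive share of 46% over all genes and 57.2% over the 9969 genes with an above-median mean intensity. The median difference was 0.10, against -0.01 over all genes. Without adjustment, 9 genes (23.7% of the list) had a p under 0.05, and each of these was higher in K289R. The share of all genes at that level was 6.42% higher and 5.61% lower in K289R, and 11.2% higher among those brighter genes. The groups did not overlap for 2 genes, Bckdhb and Gldc, against 0.853% of all genes that were higher in K289R without overlap. Genes of a pathway vary together between mice, so these counts are a description and were not tested. The median was 0.05 without array WT 3, and 26 of the 38 differences were positive. Without both WT 1 and 3 the median was 0.07, 24 differences were positive, and 4 genes had an unadjusted p under 0.05. All 4 were higher in K289R, beside 5.52% of all genes that were higher at that level in that fit. Over all genes, 46.6% were positive in each of these fits.

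**Figure D1:**
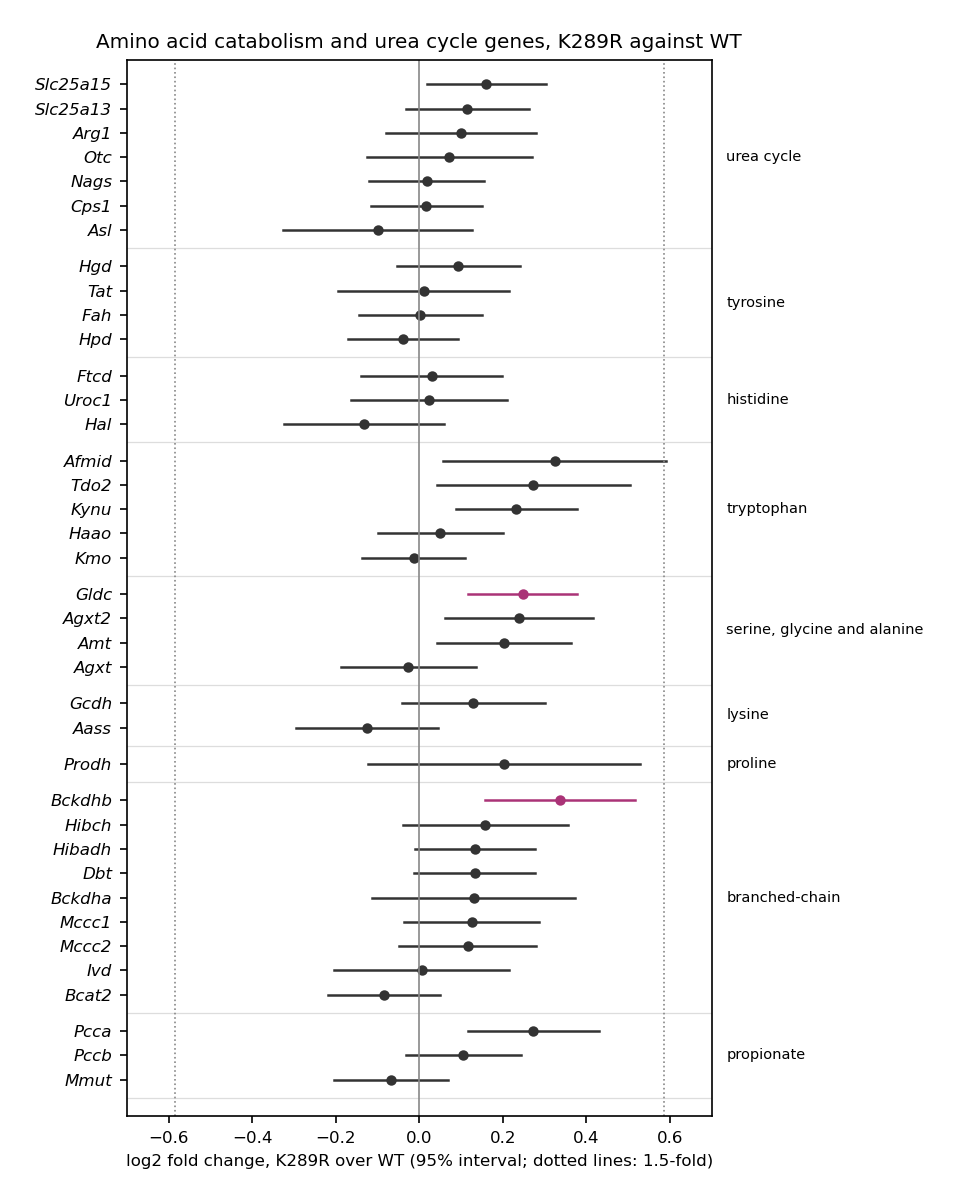
Log2 fold change of K289R over WT (horizontal axis) with its 95% interval for each of the 38 genes, in pathway order; dotted lines mark a 1.5-fold difference, and the coloured genes, Bckdhb and Gldc, are those whose groups did not overlap. Most points lie between -0.13 and 0.20, and no gene passed over all genes.

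Marker genes showed arrays that stood apart. Hepatocyte markers such as albumin and transthyretin had mean log2 intensities of 12.2 to 12.3 on all 12 arrays, and all 38 genes lay above the median intensity of every array. Acute phase genes averaged 9.44 on WT 1 and 9.60 on WT 3, while the remaining 4 WT arrays had 7.32 to 7.61 and K289R 7.28 to 8.39. Of the 10 measured, none passed. Pancreatic acinar genes averaged 8.26 on K289R 1 and 8.66 on K289R 3, against 4.12 to 4.39 on the other arrays, and none of 13 passed. Skeletal muscle genes, a list of 10 in which none passed, averaged 7.03 on WT 1 and 6.04 on K289R 3, against 4.57 to 4.99 on the other arrays. The part of these transcripts in the amino acid genes was not tested. For some genes the value with these arrays left out is given as well. Kupffer, cholangiocyte, endothelial and stellate markers had no member that passed, and their mean levels overlapped between the genotypes.

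Mean levels of zone markers were higher on most K289R arrays, whereas the median differences over their genes were small. Pericentral markers averaged 8.92 to 9.27 in WT and 9.27 to 9.44 in K289R on the log2 scale. Of 10 measured, 7 had a positive difference, the median was 0.05, and the ammonium transporter Rhbg was the 1 that passed, higher in K289R. Rhbg measured 67.2 to 101 in WT and 217 to 290 in K289R, and the mean includes this large difference. Cyp1a2 overlapped, with 1045 to 1681 in WT and 1113 to 1539 in K289R. Periportal markers averaged 9.15 to 9.43 in WT and 9.36 to 9.68 in K289R. Of 8 measured, 4 had a positive difference, the median was 0.04, and the aldehyde dehydrogenase Aldh1b1 was the 1 that passed, higher in K289R. Aldh1b1 measured 53.5 to 86.0 in WT and 121 to 180 in K289R, and Pck1 314 to 2194 and 845 to 1612. The 4 periportal markers with a positive difference were Aldh1b1, Pck1, Hsd17b13 and Ctsc. Cyp2f2, Cdh1, Pigr and Igf1 lay lower in K289R on average. None of these but Aldh1b1 passed. Cyp2f2 measured 3807 to 4763 in WT and 3183 to 3970 in K289R, and Cdh1 168 to 287 and 114 to 206. The means were not tested, and these genes are named after their values were seen. The part of zonation in the values of the amino acid genes was not tested.

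Of the urea cycle and its carriers, 7 genes were measured and none passed. Carbamoyl phosphate synthetase (Cps1) fixes ammonia in the first step. Its intensity, in linear units, had a lowest, median and highest value of 4021, 4202 and 4465 in WT and 3986, 4219.8 and 4684 in K289R. The groups overlapped over nearly their whole range, and the log2 difference was 0.02 (95% interval -0.12 to 0.15, adjusted p = 0.938). Its activator enzyme Nags, which makes N-acetylglutamate, had a difference of 0.02 (adjusted p = 0.938). Ornithine transcarbamylase (Otc), which makes citrulline, had a difference of 0.07 (adjusted p = 0.781) and argininosuccinate lyase (Asl) one of -0.10 (adjusted p = 0.732). Arginase (Arg1), which splits arginine into ornithine and urea, had a difference of 0.10 (adjusted p = 0.656). Array K289R 3 was the highest for Arg1, and leaving it out gave 0.03 (adjusted p = 0.894).

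The mitochondrial ornithine carrier Slc25a15, which exchanges ornithine for citrulline, had the smallest p of the cycle. It measured 536, 589.8 and 634 in WT and 619, 638 and 739 in K289R. Only the top of the WT range reached into the K289R range, and the log2 difference was 0.16 (95% interval 0.02 to 0.30, adjusted p = 0.361). The aspartate-glutamate carrier Slc25a13, which brings aspartate to the cytosol for the cycle, measured 499 to 613 in WT and 549 to 647 in K289R (difference 0.11, adjusted p = 0.524), and its difference was 0.06 with WT 1 and 3 and K289R 1 and 3 left out (adjusted p = 0.888). Argininosuccinate synthetase (Ass1) cannot be told from Gm5424 on this array. The 2 probe sets that the genes share had differences of -0.10 each, and adjusted p of 0.611 and 0.594 in a fit of all 35556 rows. Their lowest to highest values were 3570.5 to 4035 in WT and 3246 to 3883 in K289R on one, and 3524 to 4031 in WT and 3201 to 3824 in K289R on the other.

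In tyrosine breakdown none of 4 genes passed, and the median difference was 0.0066. Tyrosine aminotransferase (Tat), the classical glucocorticoid-induced enzyme of the chain, measured 2727, 3153 and 3625 in WT and 2540.4, 3190.2 and 3873 in K289R. Its highest and lowest values of all arrays were both K289R, and the log2 difference was 0.01 (95% interval -0.19 to 0.22, adjusted p = 0.975). The dioxygenases Hpd and Hgd, which open the way to ring cleavage and cleave the ring, had differences of -0.04 and 0.09 (adjusted p = 0.833 and 0.5999). Fumarylacetoacetate hydrolase (Fah), the last enzyme, measured 2208 to 2851 in WT and 2495 to 2841 in K289R, a difference of 0.0028 (adjusted p = 0.992).

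The 3 histidine genes did not pass either. Histidine ammonia-lyase (Hal), which removes the amino group, had the lowest difference of the list, -0.13 (95% interval -0.32 to 0.06, adjusted p = 0.570). It measured 1109, 1281 and 1376 in WT and 1013, 1084 and 1483 in K289R, where array K289R 3 was the highest of all 12. Without K289R 1 and 3 the difference was -0.21 (adjusted p = 0.505). Urocanase (Uroc1) and Ftcd, which passes the formimino group to folate, had differences of 0.02 and 0.03 (adjusted p = 0.938 and 0.907).

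Tryptophan is degraded along the kynurenine pathway. Of its genes in the list 5 were measured, and 3 were among the 9 with an unadjusted p under 0.05. At that level 6.42% of all genes were higher in K289R, and 11.2% of the brighter genes. Tryptophan dioxygenase (Tdo2), which opens the indole ring, measured 1831, 2330.3 and 2781 in WT and 2343, 2764 and 3131 in K289R. The WT arrays fell into 3 lower values, on WT 1, 2 and 3, and 3 values within the K289R range. The difference was 0.27 (95% interval 0.04 to 0.50, adjusted p = 0.334); leaving out WT 1 and 3 gave 0.14 (adjusted p = 0.642).

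Formamidase (Afmid), which releases kynurenine in the next step, was the widest of the 3. It measured 403, 617 and 754 in WT and 601, 728 and 816 in K289R, with the lowest WT values on WT 3 and WT 2. The difference was 0.32 (95% interval 0.06 to 0.59, adjusted p = 0.315); leaving out WT 1 and 3 gave 0.21 (adjusted p = 0.529).

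Kynureninase (Kynu), which cleaves kynurenine and its hydroxylated form, measured 1022, 1149 and 1323 in WT and 1290.3, 1360.0 and 1466 in K289R. A single WT array, WT 1, lay within the K289R range. Its difference was 0.23 (95% interval 0.09 to 0.38, adjusted p = 0.170), and leaving out WT 1 and 3 it was 0.23 as well (adjusted p = 0.212). The remaining enzymes of the pathway in the list lay closer to 0. Kynurenine monooxygenase (Kmo) had a difference of -0.01 (adjusted p = 0.946) and Haao, which leads toward quinolinate and NAD, one of 0.05 (adjusted p = 0.803). Outside the list 4 more tryptophan genes were measured, with 2 positive and 2 negative differences and a median of -0.10. They ran from -0.27 (Acmsd) to 0.25 (Ido2), and none passed.

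Of the 4 measured genes of the list in serine, glycine and alanine breakdown, 3 were among the 9, beside the same shares of 6.42% and 11.2%. These chains were singled out after the values were seen. Glycine decarboxylase (Gldc) and aminomethyltransferase (Amt) are the P and T proteins of the mitochondrial glycine cleavage system, which feeds carbon into folate. Gldc measured 651, 697 and 758 in WT and 779.7, 829.9 and 893 in K289R. Every K289R array lay above every WT array, and the difference was 0.25, or 1.19-fold (95% interval 1.08 to 1.30, adjusted p = 0.0947). It was the 1 gene of the list that passed under any other setting, with an adjusted p of 0.0364 when array medians were made equal and 0.0435 when dim genes were left out of the test. Over the alternatives tried its adjusted p ran from 0.0364 to 0.534.

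Amt measured 227, 269.7 and 295 in WT and 278, 309 and 343 in K289R, where the groups overlapped in part (difference 0.20, 95% interval 0.04 to 0.36, adjusted p = 0.291). The third of these genes was Agxt2, a mitochondrial aminotransferase that uses glyoxylate and dimethylarginine. It measured 422, 482 and 506 in WT and 467, 572 and 632 in K289R. Arrays K289R 1 and 2 lay within the WT range and the other 4 above every WT array (difference 0.24, 95% interval 0.06 to 0.42, adjusted p = 0.268). The peroxisomal alanine-glyoxylate aminotransferase Agxt had a difference of -0.03 (95% interval -0.19 to 0.14, adjusted p = 0.916). Outside the list, 13 measured genes of serine, glycine, threonine and asparagine had 6 positive and 7 negative differences and a median of -0.01.

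**Figure D2:**
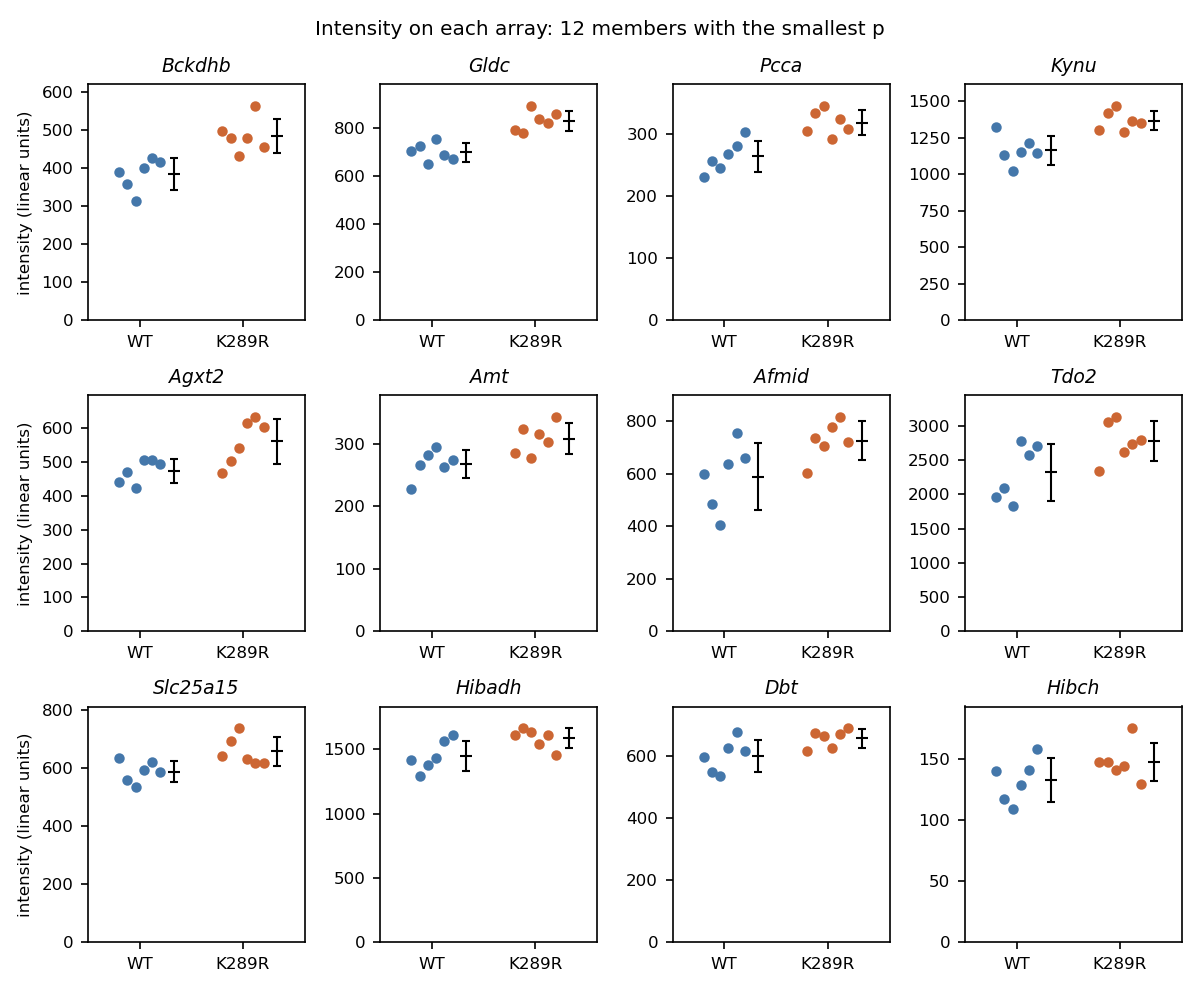
Linear intensity on each of the 12 arrays (points, 6 per genotype) with the mean and SD of each genotype at its right, for the 12 genes of the list with the smallest p. Vertical axes start at 0; Bckdhb and Gldc are the genes in which all K289R arrays lie above all WT arrays.

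For lysine and proline, the differences had wide or opposite values. Aass, which starts lysine breakdown, measured 921 to 1060.3 in WT and 760.0 to 1097 in K289R (difference -0.13, adjusted p = 0.540). Glutaryl-CoA dehydrogenase (Gcdh), further down the same chain, measured 704 to 979.6 in WT and 911 to 1022 in K289R (difference 0.13, adjusted p = 0.532). With WT 3 left out it was 0.07 (adjusted p = 0.752). Proline dehydrogenase (Prodh) varied most between WT mice, with an SD of 0.43 on the log2 scale against 0.15 in K289R. It measured 128 on WT 3 and between 221 and 305 on the other WT arrays, against 219.6 to 285 in K289R. Its difference was 0.20 (95% interval -0.12 to 0.53, adjusted p = 0.610); leaving out WT 1 and 3 gave 0.05 (adjusted p = 0.894).

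Of the 9 genes of branched-chain breakdown none passed, and 8 had a positive difference. The branched-chain ketoacid dehydrogenase complex commits these carbons to oxidation, and its subunits differed in their values. Bckdhb, the beta subunit of its decarboxylase, measured 314, 396 and 427 in WT and 434, 479 and 564 in K289R. No array of the groups overlapped, though the nearest values were close, and the difference was 0.34, or 1.26-fold (95% interval 1.12 to 1.43, adjusted p = 0.0947). Leaving out WT 1 and 3 gave 0.27 (adjusted p = 0.258), and leaving out K289R 1 and 3 gave 0.37 (adjusted p = 0.204), with fewer arrays in each fit.

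Bckdha, the alpha subunit of the same decarboxylase, measured 219, 289.2 and 358 in WT and 269, 295 and 346 in K289R. The K289R values lay inside the WT range, and the difference was 0.13 (95% interval -0.11 to 0.37, adjusted p = 0.668). Leaving out WT 2 gave 0.07 (adjusted p = 0.888), WT 3 gave 0.06 (adjusted p = 0.869) and WT 5 gave 0.20 (adjusted p = 0.432). Dbt, the transacylase core of the complex, measured 538, 607 and 678 in WT and 615, 668 and 691 in K289R (difference 0.13, adjusted p = 0.460). Whether the subunits differed from each other was not tested.

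Further along the branched-chain routes the differences were small. Hibadh and Hibch, which act on valine intermediates, had the smallest p. Hibadh measured 1296, 1423 and 1611 in WT and 1459, 1611 and 1667 in K289R (difference 0.13, adjusted p = 0.451). A second Hibadh probe set, with intensities of 2.67 to 6.04, lay far below the array medians and was not used. Hibch measured 109, 135 and 158 in WT and 129, 146 and 175 in K289R (difference 0.16, adjusted p = 0.513). The subunits of methylcrotonyl-CoA carboxylase in leucine breakdown, Mccc1 and Mccc2, had differences of 0.13 and 0.12 (adjusted p = 0.525 and 0.561). Isovaleryl-CoA dehydrogenase (Ivd), 1 step earlier, had 0.0056 (adjusted p = 0.987). The mitochondrial aminotransferase Bcat2, which is low in hepatocytes, measured 82.2 to 101 in WT and 86.9 to 92.0 in K289R, a difference of -0.08 (adjusted p = 0.604).

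Propionyl-CoA from valine, isoleucine, methionine and odd-chain fats is carboxylated and then rearranged to succinyl-CoA. Pcca, the biotin-carrying alpha subunit of propionyl-CoA carboxylase, measured 231, 263 and 303 in WT and 293, 317 and 346 in K289R. A single WT array, WT 6, reached into the K289R range, and the difference was 0.27 (95% interval 0.12 to 0.43, adjusted p = 0.131). It was 0.20 when WT 1 and 3 were left out (adjusted p = 0.376) and 0.19 when K289R 1 and 3 were left out too (adjusted p = 0.627). The beta subunit Pccb measured 268, 275 and 286 in WT and 268, 298 and 335 in K289R (difference 0.11, adjusted p = 0.529). Methylmalonyl-CoA mutase (Mmut), the last step, had a difference of -0.07 (adjusted p = 0.692).

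The spread between mice was of similar size in both genotypes. The SD of log2 values within a genotype had a median of 0.13 in WT and 0.12 in K289R over the 38 genes, against 0.14 in each over all genes. The SD was larger in WT than in K289R for 25 of 38 genes (65.8%), whereas the share was 49.8% of all genes. Array WT 3 was the lowest WT array for 20 of the 38 genes and the lowest of all 12 for 16. The 38 genes had a median of -0.13 relative to the WT mean on that array, on the log2 scale, and of 0.01 on WT 1, the other array high in acute phase genes. Array K289R 3 was the highest of all 12 arrays for 10 genes and K289R 5 for 9. The part of the acute phase in the low values of WT 3 was not tested.

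**Figure D3:**
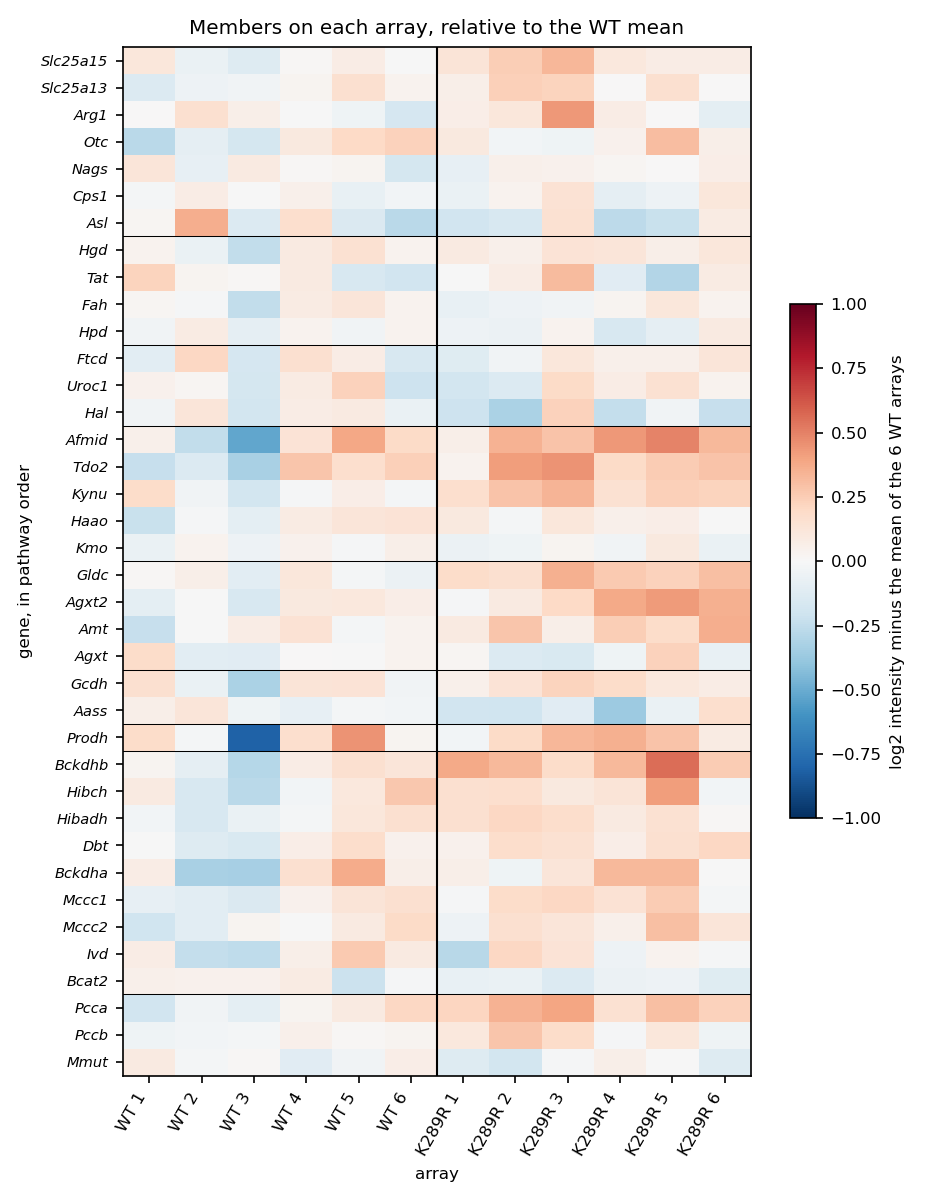
Log2 intensity of the 38 genes on each array minus the mean of the 6 WT arrays (colour, from blue for lower to red for higher), with genes in pathway order and a vertical line between the genotypes. The column of WT 3 is mostly blue, with Prodh the lowest, and the rows of the tyrosine genes show no split between genotypes.

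Among other genes of amino acid breakdown that are not in the list, 2 of 70 measured passed, both higher in K289R, against 0.481% of all genes tested that were called higher. Both are aminotransferases. The mitochondrial alanine aminotransferase Gpt2 measured 595, 768 and 981 in WT and 1115, 1191 and 1315 in K289R (difference 0.64, adjusted p = 0.00367). The cytosolic aspartate aminotransferase Got1 measured 409.7, 465 and 602 in WT and 642, 679 and 720.3 in K289R (difference 0.51, adjusted p = 0.00536). For both, every K289R array lay above every WT array. This held for 3 of the 70 genes, the third being Suox, which did not pass. Over all genes, 0.853% were higher in K289R without overlap. Gpt2 and Got1 belong to 9 measured aminotransferases (median difference 0.15), and the other 7 did not pass.

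The next 6 genes by p outside the list did not pass. Serine hydroxymethyltransferase (Shmt1), which links serine to glycine and folate, had a difference of 0.35 (adjusted p = 0.0947). With WT 1 and 3 and K289R 1 and 3 all left out, the Shmt1 difference was 0.19 (adjusted p = 0.627). Pipox, a peroxisomal oxidase of sarcosine and pipecolate, had one of 0.29 (adjusted p = 0.139). Cystathionine gamma-lyase (Cth), which releases cysteine, had 0.34 (adjusted p = 0.165), and sulfite oxidase (Suox), the end of cysteine breakdown, 0.22 (adjusted p = 0.183). Acat1, which splits acetoacetyl-CoA, had 0.24 (adjusted p = 0.218), and Qdpr, which regenerates the cofactor of aromatic hydroxylation, 0.28 (adjusted p = 0.240). The Qdpr difference was 0.17 when WT 1 and 3 were left out (adjusted p = 0.492). Over the 70 genes the median difference was 0.04, and 45 (64.3%) were positive. The positive share was 46% over all genes and 57.2% over the genes with an above-median mean intensity. Beside the 9 aminotransferases, the 5 genes of cysteine breakdown had a median of 0.29 and the 15 other genes of branched-chain and propionate breakdown one of 0.10. Medians of further groups were 0.13 (proline), 0.12 (phenylalanine and tyrosine) and 0.02 (lysine). Those below 0 were -0.01 (serine, glycine, threonine and asparagine), -0.09 (histidine) and -0.10 (tryptophan). The 10 measured genes of nitrogen entry, such as glutamate dehydrogenase, had 5 positive and 5 negative differences and also a median below 0, -0.03.

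Of 15 measured regulators of these genes, 1 passed, higher in K289R, beside the 0.481% of all genes called higher. It was the coactivator Ppargc1a, which measured 54.4, 56.4 and 70.9 in WT and 75.2, 85.1 and 92.0 in K289R (difference 0.51, adjusted p = 0.00426). With the mean of all its probe sets the difference was 0.49 (adjusted p = 0.0499). Klf15, a factor that drives amino acid breakdown in fasting, had a difference of 0.22 (95% interval 0.05 to 0.39, adjusted p = 0.289). The glucocorticoid receptor Nr3c1 and the hepatocyte factor Hnf4a had differences of -0.0079 (adjusted p = 0.975) and -0.13 (adjusted p = 0.528). Without adjustment, 6 of the 15 regulators had a p under 0.05, each higher in K289R. The share of all genes higher at that level was 6.42%, and 11.2% among the brighter genes. The 6 were Ppargc1a, Klf15, Ppara (difference 0.25), Foxo1 (0.24), Sirt3 (0.18) and Sirt5 (0.17). Over the 15 regulators the median difference was 0.02, with 9 positive and 6 negative. These counts were not tested.

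**Figure D4:**
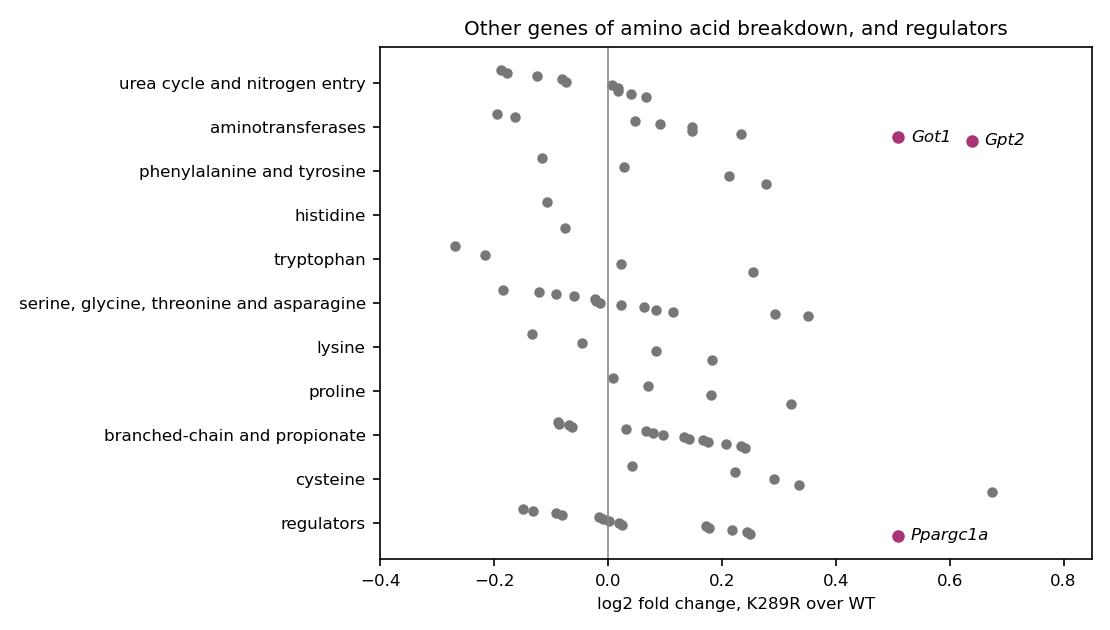
Log2 fold change of K289R over WT (horizontal axis) for 70 other genes of amino acid breakdown, by pathway, and 15 regulators; each point is 1 gene. The named, coloured genes, Gpt2, Got1 and Ppargc1a, passed over all genes and lie at 0.51 to 0.64.

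Promoters of the list were searched for the letters CAAGGTC, an NR5A half-site of the kind that LRH-1 binds as a monomer. Other spellings of the half-site were not searched. RefSeq promoters (GRCm38.p6, 250 bases before to 50 after a start) matched 33 of the 41 genes, with 38 promoters in all. On either strand 1 of the 38 held the letters, that of Gcdh, against 3.96% of all 32851 promoters. The match is given with the letters in capitals because it is the only such stretch in the promoters of this list. It begins 150 bases before the start. The 31 bases shown, with 12 on each side of the match, lie at chr8:84894053-84894083 on the minus strand.
Gcdh: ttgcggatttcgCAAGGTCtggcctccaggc
Gcdh itself had a difference of 0.13 that did not pass. None of the 38 promoters held TGATGNAA (C/EBP-ATF element, 3.97% of all promoters), TGACGTCA (cyclic AMP response element, 1.79%) or the glucocorticoid response element (0.475%), on either strand. A match is a description of the sequence, and binding was not measured.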

How the data were processed

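Values are the deposited probe set intensities, in linear units, of 12 arrays. The authors made them with Affymetrix Expression Console, per the submitters' processing notes (version, background correction, summarization and normalization: not given in the sources used here). Array medians of the deposited intensities ran from 26.8 to 29.2. No detection call was used. The number of arrays limits the precision.

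The table's 35556 rows were named through the platform annotation: 21789 rows had 1 gene symbol, 1621 several and 12146 were not listed. Symbols were updated by gene ID through RefSeq (21698 matched). Each of 19938 genes was represented by its probe set with the highest mean. Log2 was taken without a pseudocount, and K289R was compared with WT in limma 3.58.1 (R 4.3.3) without covariates, two-sided, with Benjamini-Hochberg adjustment over all genes. Every adjusted p and 95% interval is from limma. Lowest, median and highest values are linear intensities of 6 arrays. The replicate numbers name different mice and were not used as a block. No scan date or slide was given, so batches were not analysed.

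The genes and lists were chosen with earlier results of these data known. Genes given in full are those that passed or, failing that, the 12 of the list with the smallest p; outside it, those that passed and the next 6, and Klf15, Nr3c1 and Hnf4a. Cps1, Tat, Hal, Bckdha and Pccb fall outside this rule and were added after their values were seen. Alternatives were other scalings, probe set and dim gene rules, trend and robust fits, array weights, the replicate block, and leaving out arrays. No set test was run. The fit was tested on simulated data. Figures were drawn with matplotlib 3.10.9.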

Additional observations from a re-analysis of the deposited data

Results flagged for a closer look

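Of 100 groups of 6 arrays examined for an array far from the rest (50 genes, each genotype), 3 had one, and chance alone gives about 1 in 20. For Otc, array K289R 5 measured 1294 against 1014 to 1118 on the other K289R arrays. For Arg1, array K289R 3 measured 1334 against 921 to 1069 on the others. That array also carried acinar and muscle transcripts, and the part of these in the Arg1 value was not tested. For Bcat2, array WT 5 measured 82.2 against 94.8 to 101 on the other WT arrays, all of which lay above the K289R range of 86.9 to 92.0.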

How the results depend on the processing

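The count of called genes among the 38 was 0 in the main analysis and in 20 of 22 alternatives. It was 1, Gldc, with equal array medians (141 genes called in all) and when only genes above the median intensity were tested (164 of 9969 genes, a smaller number to adjust over). Equal medians moved the median of all genes from -0.01 to 0.03. Over all genes 114 were called, 75 without K289R 1 and 3 and 65 without WT 1 and 3 as well, where fewer arrays were fitted. Gpt2, Got1 and Ppargc1a passed under every alternative run, with highest adjusted p of 0.0465, 0.0286 and 0.0499. The value for Ppargc1a, at the edge of the threshold, came with the mean of all its probe sets. The median of the 38 ran from 0.05 to 0.14. Deviations of same-numbered arrays correlated between -0.23 and 0.23. Differently numbered arrays were not compared, so these values cannot show whether replicate numbers pair the mice. With the replicate block 0 of the 38 and 111 genes overall were called. Signs turned only for genes close to 0. They turned with equal medians in Kmo (0.024), Agxt (0.011) and Nr3c1 (0.029). With quantile normalization they turned in Nags (-0.028), Uroc1 (-0.0042), Ftcd (-0.012) and Ivd (-0.032), and with array weights in Fah (-0.026), Uroc1 (-0.0026) and Ivd (-0.0080). Without K289R 1 and 3 they turned in Tat (-0.062) and Nr3c1 (0.025). Without WT 1 and 3 they turned in Otc (-0.039), Fah (-0.054), Uroc1 (-0.0084), Ftcd (-0.040), Haao (-0.031) and Ivd (-0.038). Without all 4 arrays they turned in Cps1 (-0.00095), Otc (-0.016), Tat (-0.0031), Fah (-0.026), Uroc1 (-0.00033), Ftcd (-0.023), Haao (-0.057) and Agxt (0.013). Leaving out 1 array gave ranges across 0 for Agxt (-0.078 to 0.011), Ivd (-0.045 to 0.063), Fah (-0.047 to 0.027), Uroc1 (-0.018 to 0.070), Ftcd (-0.0047 to 0.070), Tat (-0.051 to 0.071), Nags (-0.018 to 0.042), Nr3c1 (-0.055 to 0.025) and Cps1 (-0.0092 to 0.037). The cause was not tested for any of these. The spread between mice, a result added after the data were seen, had a median SD of 0.11 to 0.15 in WT and 0.10 to 0.13 in K289R under the same alternatives.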
